A study of Saccharomyces cerevisiae with 2 samples.

Results

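Small nucleolar RNAs (snoRNAs) that are cut out of the introns of host genes were described here for crosslinking to Dbp2p, a helicase of the DEAD-box family in budding yeast. The 8 RNAs were taken by name from the deposited iCLIP lists: SNR18 (host EFB1), SNR24 (ASC1), SNR38 (TEF4), SNR39 (RPL7A), SNR59 (RPL7B), SNR54 (IMD4), SNR44 (RPS22B) and SNR191 (NOG2). They are 8 of 81 SNR names and of 4336 gene names listed in all. The 6 RNAs SNR18 to SNR54 belong to the box C/D family and SNR44 and SNR191 to the box H/ACA family. The other 73 SNR names hold 41 box C/D snoRNAs, 27 box H/ACA snoRNAs and 5 spliceosomal RNAs.

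Both samples came from Saccharomyces cerevisiae strain BTY140, MATa his3Δ1 leu2Δ0 met15Δ0 ura3Δ0 with DBP2-HTBH:kanMX6, so every Dbp2p molecule carried the HIS-Biotin tag used for the pull-down. Cells grew at 30 °C in YPD and were UV-irradiated before they were collected. There is 1 group with 2 replicates, and the labels do not say how the cultures were separated, so a spread between them may be technical. Neither an untagged strain nor an input was analysed here. In iCLIP the protein is joined to RNA by UV light and the joined nucleotide is read from where the cDNA stops.

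Box C/D snoRNAs guide ribose methylation of ribosomal RNA and carry a C box near the 5′ end and a D box near the 3′ end, which a terminal stem brings together. Box H/ACA snoRNAs guide pseudouridylation, are built of hairpins and carry the ACA box just before the 3′ end. An intronic snoRNA has no promoter of its own: the host pre-mRNA is spliced, the intron is debranched and exonucleases trim it back to the protein-covered snoRNA. SNR18, SNR24, SNR38, SNR39 and SNR59 guide methylation of the large subunit rRNA and SNR54 of the small subunit rRNA. SNR191 guides pseudouridylation of the large subunit rRNA, and SNR44 acts on both rRNAs.

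The letters that the lists give show where the signal of each RNA lay. For each RNA the 30 nt window with the most listed nucleotides over both replicates is printed below, 5′ to 3′. Capitals mark nucleotides with at least 5% of the RNA's signal in either replicate, n stands for a nucleotide that was not listed and t for the U of the RNA.
SNR18: nnnnntgncAnaAgngatgtnnTtGAcnat
SNR24: nttGAgnnnnnnnnnnnnnannncAaTtAT
SNR38: taaTAnGtaacCtcncAtAtgTtgAtatnt
SNR39: nAttgAcgatGcngtngtannTTAtcAcca
SNR59: nnntTtGncAntncTgnCgTtTAatnAcna
SNR54: ntcaanannnntcnntnTAntnncnnTgat
SNR44: CatntnnnnnnannAnatnnAttaccnTTt
SNR191: tnannTcngnnncnAtanAnnAtgTtcntA

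In sacCer3 these windows are chrI:142425-142454 (plus strand) in SNR18, chrXIII:500003-500032 (minus) in SNR24, chrXI:283238-283267 (plus) in SNR38 and chrVII:365177-365206 (minus) in SNR39. The others are chrXVI:173861-173890 (plus) in SNR59, chrXIII:163568-163597 (minus) in SNR54, chrXII:856873-856902 (plus) in SNR44 and chrXIV:721956-721985 (minus) in SNR191. They held 51.6% to 97.4% of the RNA's signal in replicate 1 and 0% to 100% in replicate 2. In SNR54 other windows held as many listed nucleotides, and the most 5′ was printed. Some of those others contain A55, which held all of its replicate 2 signal. With the printed windows, the strongest nucleotide of replicate 2 lay outside in 6 RNAs. For the 4 of these with at least 5 nucleotides in replicate 2, the 20 nt with the most replicate 2 signal are shown next, with capitals for at least 5% in replicate 2.
SNR18: tgnnnnnnnnnTnnnAnTCT
SNR24: TnAAATnnnnnannnncann
SNR44: nnnnanAnngnnTgntcgng
SNR191: tagnannnnnnnnnnnAnnt

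These windows are chrI:142368-142387 in SNR18, chrXIII:500053-500072 in SNR24, chrXII:856721-856740 in SNR44 and chrXIV:721938-721957 in SNR191. They held 92.1%, 100%, 65.0% and 53.1% of the replicate 2 signal, and 2.38%, 6.12%, 10.3% and 19.0% of the replicate 1 signal. The other 2 are SNR39 and SNR54, in which 1 nucleotide carried all of the replicate 2 signal.

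The values are shares of an RNA's own signal and sum to 1 in each RNA, so reads are not given and levels were not compared between RNAs. In SNR191 and SNR44 all shares were whole multiples of the smallest share. That smallest share was 1.72% in both RNAs in replicate 1, and 0.515% and 0.833% in replicate 2. If it stands for 1 count, SNR191 and SNR44 had more counts in replicate 2, where fewer of their nucleotides were listed. In the box C/D members SNR18, SNR24 and SNR38 all shares were also whole multiples of the smallest share. There it was 1.19%, 1.02% and 0.862% in replicate 1, and 2.63%, 2.56% and 0.971% in replicate 2. On the same reading these RNAs had fewer counts in replicate 2. This was not tested. The number of listed nucleotides, which also depends on RNA length, abundance and depth, was used as the measure of extent. Replicate 1 listed 8666 nucleotides in all and replicate 2 listed 18088. Under SNR names the order was opposite, with 2314 in replicate 1 and 1563 in replicate 2. The intronic snoRNAs and the other SNR names were compared by counts and medians without a test, since RNAs of a library are not replicates.

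All 8 intronic snoRNAs were listed in both replicates, with many nucleotides in replicate 1 and few in replicate 2. Together they had 208 nucleotides in replicate 1, 8.99% of those under SNR names, and 67 in replicate 2, 4.29%. Every one of the 8 had more nucleotides in replicate 1, as did 77.1% of the other SNR names listed in both. Among the other box C/D snoRNAs listed in both the share was 89.5%. Summed over the RNAs, replicate 1 had 3.10 times as many as replicate 2 among the intronic snoRNAs and 1.38 times as many among the other SNR names. Among box C/D RNAs alone the ratios were 4.51 for the 6 intronic RNAs and 1.95 for the 38 others listed in both. Such sums give most weight to RNAs with many nucleotides, such as SNR20 with 98 in replicate 1 and 165 in replicate 2. Taken per RNA, the sets were closer. The median ratio was 3 in the intronic snoRNAs and 2.27 in the other SNR names listed in both. For box C/D RNAs these medians were 5.5 and 2.76.

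SNR54, from the intron of the inosine monophosphate dehydrogenase gene IMD4 (chrXIII:163535-163620), had 32 nucleotides in replicate 1 and 1 in replicate 2. SNR39, from RPL7A (chrVII:365163-365251), had 29 and 1. These were the largest and the second largest ratio among the 78 SNR names listed in both replicates. SNR59, from the paralogous ribosomal protein gene RPL7B (chrXVI:173827-173904), had 22 and 3, the fifth largest. A single listed nucleotide in replicate 2 was found in 2 of 8 intronic snoRNAs and in 2.86% of the other SNR names. The 3 SNR names without any nucleotide in replicate 2, SNR65, SNR76 and SNR87, are all other box C/D snoRNAs, with 15, 24 and 10 nucleotides in replicate 1.

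The remaining intronic snoRNAs differed less between the replicates. SNR24, from the intron of ASC1 (chrXIII:499984-500072), had 22 and 6 nucleotides. SNR18, from EFB1 (chrI:142367-142468), had 21 and 9. SNR38, from TEF4 (chrXI:283185-283279), had 32 and 15 and had the most nucleotides of the box C/D members in replicate 2. The H/ACA members had closer numbers: SNR191, from NOG2 (chrXIV:721938-722211), had 26 and 14, and SNR44, from RPS22B (chrXII:856710-856920), had 24 and 18.

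Against the other SNR names, the median number was 25 for intronic snoRNAs and 28 for the others in replicate 1, and 7.5 and 13 in replicate 2. The difference of medians was -4.25 ± 1.77 (SD, n = 2 replicates). The intronic snoRNAs are shorter, with a median of 92 nt against 161 nt. Per 100 nt their median was 26.5 against 14.9 in replicate 1 and 5.93 against 9.18 in replicate 2, so the order of the densities turned round between the replicates. Box C/D members, of closer length (median 89 nt against 99 nt), had 30.4 per 100 nt in replicate 1 against 27.4 in other box C/D snoRNAs, and 5.29 in replicate 2 against 9.52. The 2 box H/ACA members had a median of 10.4 against 8.70 and 6.82 against 6.35.

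**Figure D1:**
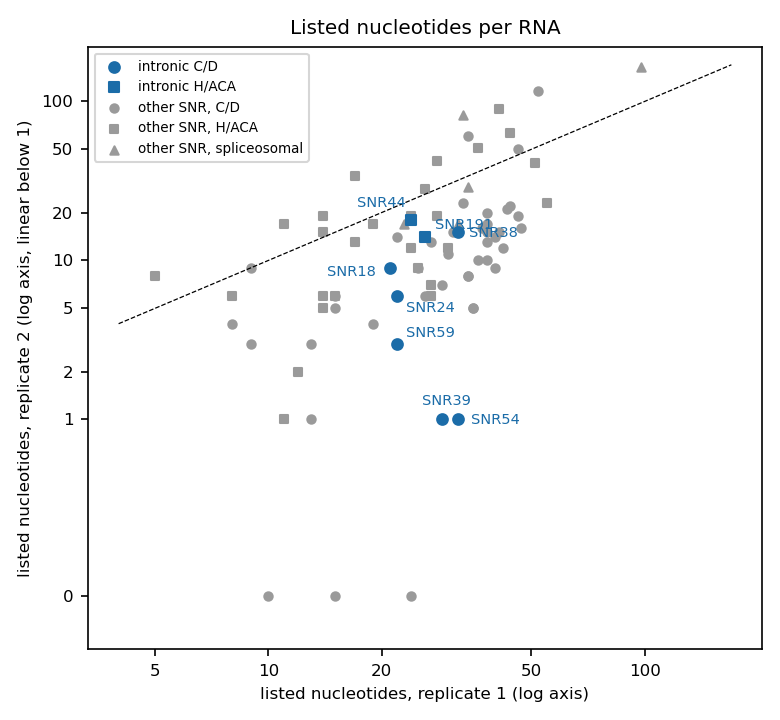
Number of listed nucleotides of each SNR name in replicate 1 (x axis, log scale) and replicate 2 (y axis, log scale, linear below 1), 1 point per RNA; blue marks the 8 intronic snoRNAs, grey the other names, and the dashed line equal numbers. All blue points lie under the line, with SNR39 and SNR54 at 1 nucleotide in replicate 2 against 29 and 32 in replicate 1.

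In replicate 1 the signal of intronic snoRNAs lay near the 3′ end. The band 15 to 59 nt before the annotated end held 67.2% to 97.5% of their signal, with a median of 84.9%, where an even spread over the RNA would give a median of 49.0%. In the other SNR names the median was 80.2%, where an even spread would give 28.0%. The strongest nucleotide lay in this band in 7 of 8 intronic snoRNAs and in 84.9% of the other names, a share close to that of the intronic snoRNAs. Among the other box C/D snoRNAs the share was 95.1%. The band was known from an earlier look at these data.

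Leaving out SNR54, whose strongest nucleotide lay 84 nt before the end, the strongest nucleotides of replicate 1 fell in a narrow range of distances. They were A84 in SNR18 with 22.6% of the signal, A69 in SNR24 with 19.4%, A70 in SNR38 with 15.5%, A69 in SNR39 with 22.4% and A57 in SNR59 with 23.3%, counted from 1 at the 5′ end. They lay 18, 20, 25, 20 and 21 nt before the annotated end. In both H/ACA members the strongest nucleotide lay 33 nt before the end, at A178 in SNR44 with 17.2% and A241 in SNR191 with 19.0%. The strongest nucleotide was an A in all 8 intronic snoRNAs in replicate 1, and in 65.8% of the other SNR names. In replicate 2 it was an A in 3 of 8, against 58.6% of the other SNR names.

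SNR54 stood apart from the other intronic snoRNAs in replicate 1. Its strongest nucleotides were A2 with 13.2% and T1 with 11.0%, at the very 5′ end, followed by T50 with 9.89%. The first 10 nt held 25.3% of its signal, against 0% to 3.45% in the other 7 intronic snoRNAs. In the other SNR names the median was 2.08% and the maximum 54.1%, so SNR54 was within their range. When each RNA was cut into 3 equal parts, the 5′, middle and 3′ part, 15.4% of the SNR54 signal lay in the 3′ part, and the other 7 had 55.7% to 93.1% there. Over 50% of the signal lay in the 3′ part in these 7 of 8, and in 76.7% of the other SNR names.

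**Figure D2:**
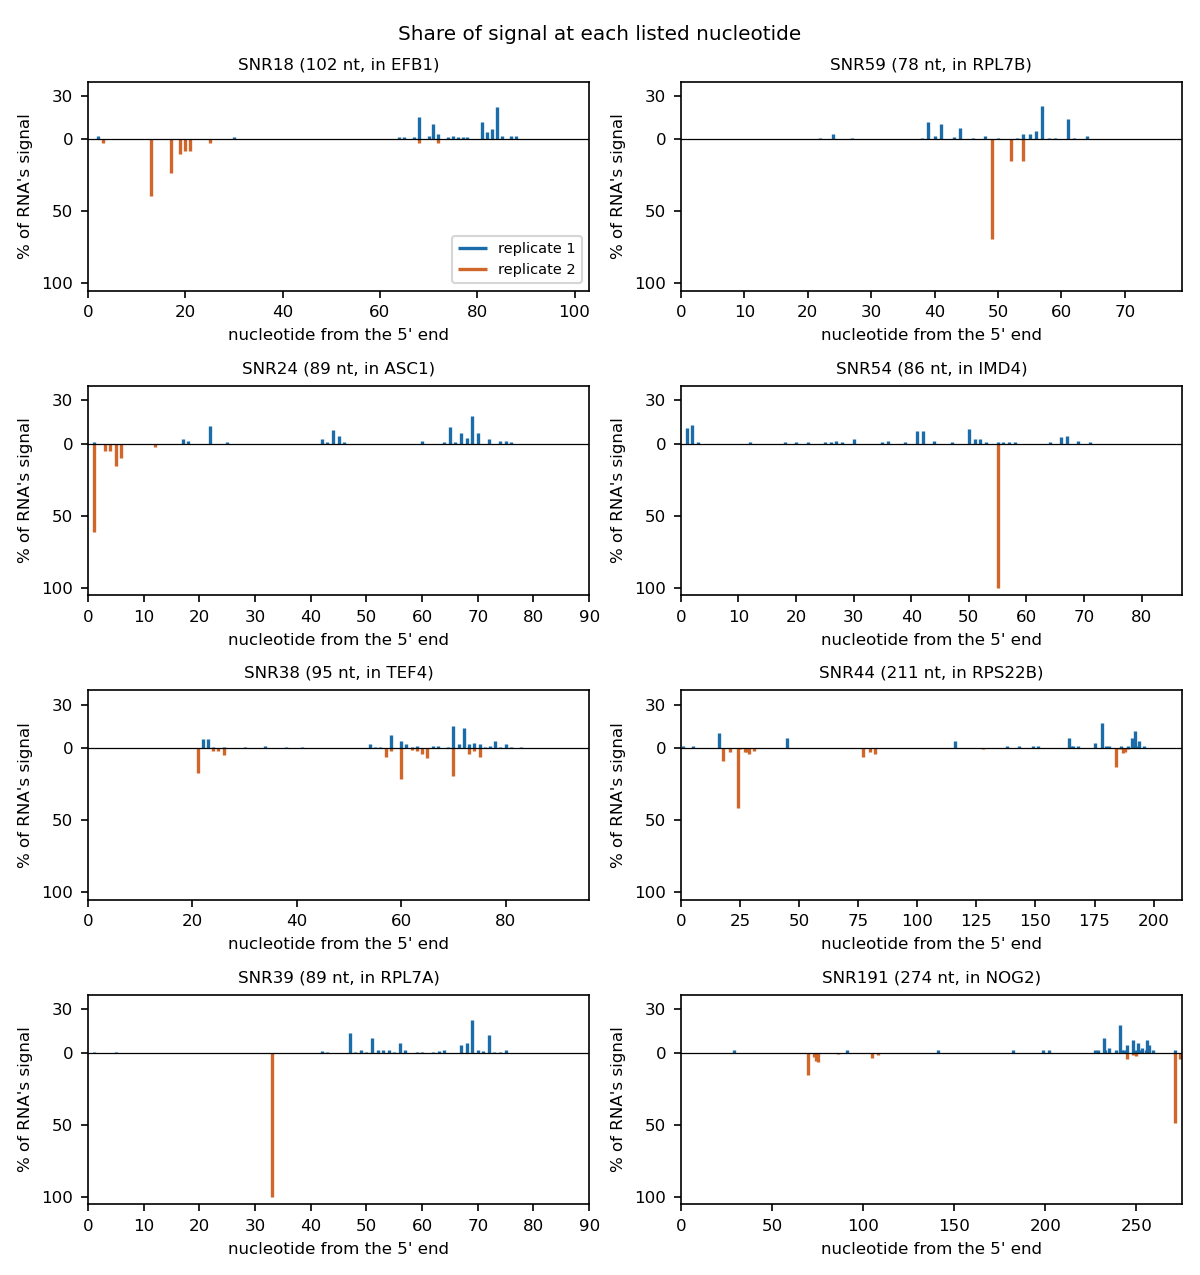
Share of the RNA's signal (y axis, percent) at each listed nucleotide (x axis, counted from the 5′ end) in the 8 intronic snoRNAs, with replicate 1 drawn upward in blue and replicate 2 downward in orange. The blue lines crowd near the 3′ end in all but SNR54, and the orange lines lie at the 5′ side in SNR18 and SNR24 and at 1 nucleotide in SNR39 and SNR54.

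The last nucleotides of the RNAs were nearly empty in replicate 1. The listed nucleotide closest to the annotated end was 12 to 15 nt before it in 7 intronic snoRNAs. In SNR191 it was nucleotide 271, 3 nt before the end, with 1.72% of the signal. A nucleotide in the last 12 nt was listed in 1 of 8 intronic snoRNAs in replicate 1, and in 24.7% of the other SNR names. In replicate 2 it was again SNR191 alone among the 8, against 7.14% of the other names.

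In replicate 2 the 5′ part held the most signal in SNR18, SNR24 and SNR44, the middle part in SNR39, SNR59 and SNR54, and the 3′ part in SNR38 and SNR191. SNR24 had 100% of its signal in the 5′ part and SNR18 had 94.7%, compared with 19.4% and 3.57% in replicate 1. SNR44 had 65.0% there, compared with 20.7%. These 3 of 8 had over 50% of their signal in the 5′ part, against 34.3% of the other SNR names, while in replicate 1 none of the 8 did, against 6.85%.

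SNR24 in replicate 2 was listed at its very start. T1 held 61.5% of the signal, A5 15.4% and T6 10.3%, and the most 3′ of its 6 nucleotides was nucleotide 12. The lists of both replicates contained T1, which held 1.02% in replicate 1. Nucleotide 1 was listed in 4 of 8 intronic snoRNAs in replicate 1, against 46.6% of the other SNR names, and in SNR24 alone of the 8 in replicate 2, against 28.6%. SNR18 had its strongest nucleotides at T13 with 39.5% and A17 with 23.7%, in the 5′ window printed above. Neither of these 2 nucleotides was listed in replicate 1. SNR44 had T24 with 41.7%, followed by A184 with 13.3% near the 3′ end, where the replicate 1 signal lay.

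SNR39 and SNR54 carried their whole replicate 2 signal at A33 and A55, in the middle part, and SNR59 carried 69.2% at T49 with the rest at C52 and T54. A share of 100% at 1 nucleotide gives no precision, as the reads behind it are unknown. The strongest nucleotides of SNR38 in replicate 2 were G60 with 21.4%, A70 with 19.4% and T21 with 17.5%. A70 was the strongest in replicate 1, and G60 held 5.17% there. SNR191 had 49.0% of its replicate 2 signal at A271 and 4.12% at its last nucleotide, T274. The last 12 nt held 53.1% of the signal of SNR191, the highest share among the 78 SNR names listed in replicate 2, of which the others reached at most 35.5%. In H/ACA RNAs the ACA box stands just before the 3′ end, and of the nucleotides around A271 the lists gave no letter for the 2 nucleotides before it, so the box was not read from these data.

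**Figure D3:**
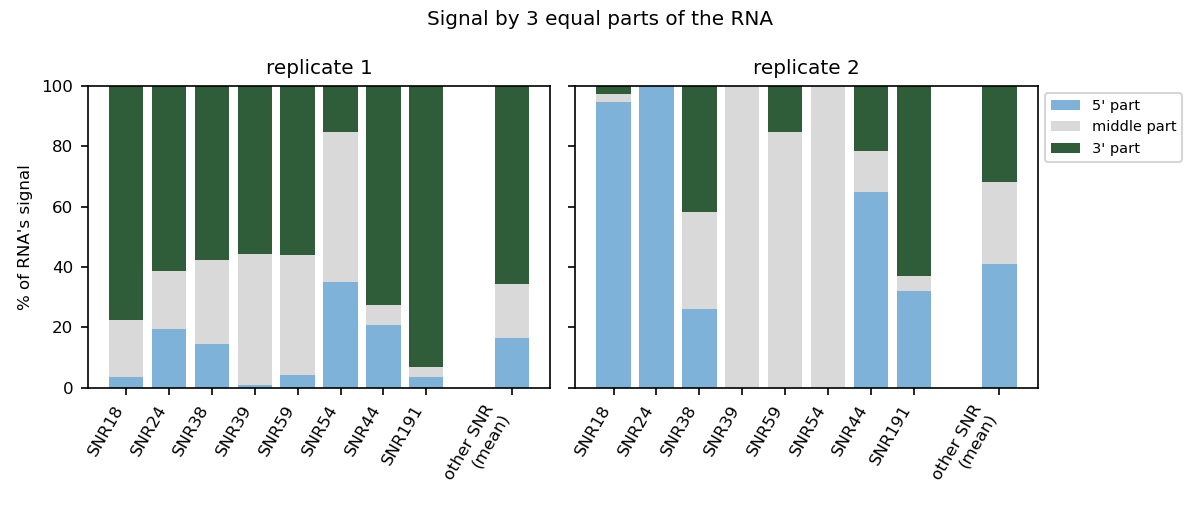
Share of signal (y axis, percent) in the 5′, middle and 3′ part of each intronic snoRNA, and the mean over the other SNR names at the right, in replicate 1 (left) and replicate 2 (right). The 3′ part leads in 7 intronic snoRNAs in replicate 1 and in SNR38 and SNR191 in replicate 2.

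The median share in the 3′ part was 59.5% in intronic snoRNAs and 66.0% in the other SNR names in replicate 1, and 9.01% and 26.1% in replicate 2. The difference of medians was -11.8 ± 7.46 percentage points (SD, n = 2). In the 5′ part the medians were 9.41% and 11.8% in replicate 1 and 29.1% and 36.6% in replicate 2, a difference of -4.95 ± 3.67 percentage points (SD, n = 2). In the band 15 to 59 nt before the end, the intronic snoRNAs had a median of 47.7% in replicate 2 against 30.4%. An even spread would give medians of 49.0% and 28.0%, but no intronic snoRNA lay near the median of its set. SNR18, SNR24, SNR44 and SNR191 had 0% to 21.7%, and SNR38, SNR39, SNR54 and SNR59 had 73.8% to 100%. Among box C/D RNAs the medians were 86.9% and 30.4%, where an even spread would give 50.6% and 45.5%. Among box H/ACA RNAs they were 15.7% and 27.4%, where it would give 18.9% and 22.2%. The 8 values ran from 0% in SNR24 to 100% in SNR39, SNR54 and SNR59, which had 1, 1 and 3 nucleotides. Over both replicates the difference of medians in the band was 11.0 ± 8.89 percentage points (SD, n = 2). The differences above depend on RNA length, since the band covers more of a short RNA.

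Box C/D members were set beside the other box C/D snoRNAs in steps of 10 nt. In replicate 1 the mean share of their signal was 18.2% at 10 to 19 nt before the end, 33.2% at 20 to 29 nt and 23.5% at 30 to 39 nt, against 21.4%, 30.7% and 17.2% in the others. In replicate 2 it was 0% at 10 to 19 nt, 21.8% at 20 to 29 nt, 24.7% at 30 to 39 nt and 31.2% at 80 to 89 nt, against 2.29%, 16.5%, 13.4% and 17.9%. With 6 RNAs, 1 RNA can add up to 16.7 percentage points to such a mean. In replicate 2 the step at 50 to 59 nt was SNR39 alone, and that at 80 to 89 nt was SNR18 and SNR24 alone. All signal of SNR59 lay at 20 to 29 nt and all of SNR54 at 30 to 39 nt. The replicate 2 medians at 20 to 29, 30 to 39 and 80 to 89 nt were 0%, 2.63% and 0%, against 8.05%, 1.29% and 2.29% in the others.

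**Figure D4:**
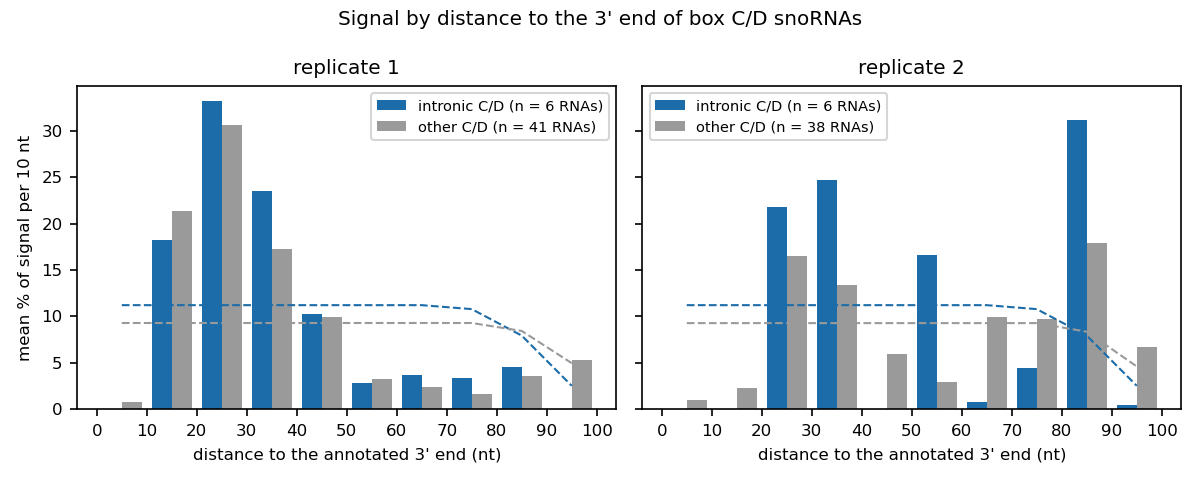
Mean share of signal (y axis, percent per 10 nt) by distance to the annotated 3′ end (x axis, nt) in the 6 intronic box C/D snoRNAs (blue) and the other box C/D snoRNAs (grey), in replicate 1 (left) and replicate 2 (right); dashed lines give an even spread over the RNA. Both sets peak at 20 to 29 nt in replicate 1. In replicate 2 the blue bar at 80 to 89 nt, 31.2%, is the highest and comes from SNR18 and SNR24 alone.

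The signal lay closer to the 5′ end in replicate 2 than in replicate 1 in most of the 8. The signal-weighted centre, in percent of RNA length, was farther 3′ in replicate 1 in 6 of 8 intronic snoRNAs and in 81.4% of the other SNR names. The gap was 57.9 percentage points in SNR24, 55.3 in SNR18, 36.4 in SNR44, 30.9 in SNR39, 13.7 in SNR191 and 7.16 in SNR38. It was -0.41 in SNR59 and -23.2 in SNR54. The replicate 2 centres of SNR39 and SNR54 are each 1 nucleotide. The median gap was 22.3 percentage points in intronic snoRNAs and 18.8 in the others.

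Few nucleotides were listed in both replicates. The intronic snoRNAs shared 21, which was 10.1% of their replicate 1 list and 31.3% of their replicate 2 list, against 18.2% and 25% in the other SNR names. SNR38 gave 10 of the 21, or 66.7% of its replicate 2 list, and these held 43.1% of its signal in replicate 1 and 64.1% in replicate 2. SNR191 shared 4, SNR18 and SNR44 shared 2 each, SNR24, SNR59 and SNR54 shared 1 each and SNR39 shared none. At least 1 nucleotide was thus shared by 7 of 8, as in 82.9% of the other names. The strongest nucleotide was the same in none of the 8, and in 2.86% of the other names.

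The letters of the listed nucleotides were those of snoRNAs in general. A or T made up 75.5% of the nucleotides of intronic snoRNAs in replicate 1 and 67.2% in replicate 2, against 74.3% and 68.1% in the other SNR names. Weighted by signal, A held 53.7% and 47.6%, against 48.4% and 47.9%. The base composition of the full RNAs was not used here, so these shares are not a preference for a base.

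The host genes give a view of the intron around each snoRNA, since a nucleotide was listed under 1 name only. EFB1 and TEF4 encode translation elongation factor subunits, ASC1 a ribosome-associated protein, RPL7A, RPL7B and RPS22B ribosomal proteins, and NOG2 a GTPase of large subunit assembly. All 8 snoRNAs lie inside the annotated span of the host. The annotation has no introns, so the flanks were taken as 100 nt on each side of the snoRNA. No nucleotide within a snoRNA was listed under its host.

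The flanks were sparse compared with the snoRNAs. Hosts had 54 listed nucleotides in replicate 1 and 110 in replicate 2, of which 11 and 4 lay in the flanks, 20.4% and 3.64%. Per 100 nt, the snoRNAs had 20.3 listed nucleotides in replicate 1 and 6.54 in replicate 2, the flanks 0.69 and 0.25, and the rest of the host spans 0.36 and 0.96. More nucleotides were listed in replicate 2 in 7 of 8 hosts, and in 69% of the other names that are not SNR names. The hosts together had 2.04 times as many in replicate 2 as in replicate 1, against 2.61 times in those other names. The paralogs RPL7A and RPL7B had 15 and 13 in replicate 2, and several of these ran in parallel. Examples lay 390, 541 and 665 nt past the snoRNA in RPL7A and 360, 511 and 635 nt past it in RPL7B. Whether the same reads were listed under both paralogs was not tested. ASC1 had 10 in replicate 1 and 42 in replicate 2, while SNR24 inside it had 22 and 6. RPS22B, the exception, had 4 and 0, while SNR44 had 24 and 18.

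Of the 9 flank nucleotides upstream of a snoRNA, 5 were the nucleotide directly before its annotated 5′ end. In ASC1 this was coordinate 500073 on chromosome XIII in both replicates, with 2.04% of the host's signal in replicate 1 and 5.47% in replicate 2. The neighbouring T1 of SNR24 was listed in both as well. The other 3 were in TEF4 (283184) and RPS22B (856709) in replicate 1 and in EFB1 (142366) in replicate 2. In NOG2, coordinate 721937 was listed in replicate 2, the nucleotide directly after the annotated 3′ end of SNR191, whose own signal in that replicate was strongest 3 nt before that end. Which nucleotide the authors reported relative to the cDNA stop is not given in the sources used here, so a shift of 1 nt between snoRNA and host cannot be told apart from precursor RNA.

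**Figure D5:**
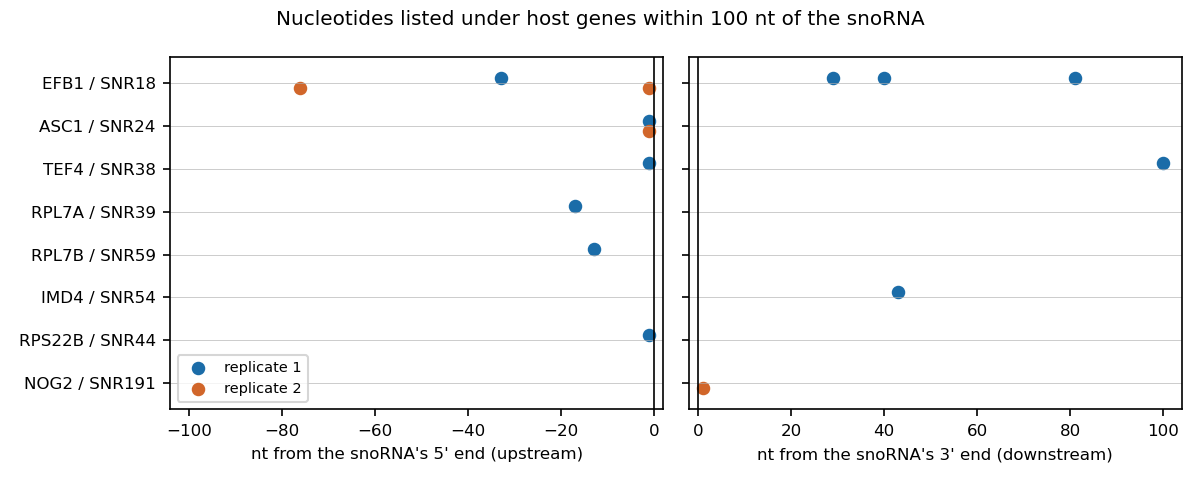
Nucleotides listed under the host gene within 100 nt upstream (left) or downstream (right) of each intronic snoRNA (rows), by distance to the snoRNA's annotated end (x axis, nt), in replicate 1 (blue) and replicate 2 (orange). Of the 15 points, 5 lie 1 nt before a 5′ end and 1 lies 1 nt after a 3′ end.

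The RNAs whose pattern was most like the mean of the intronic snoRNAs were sought among the other SNR names listed in both replicates. Likeness was the sum of absolute differences in the share of signal over 5 equal parts of the RNA in both replicates, 10 values, where 0 would be identical. SNR128, the U14 snoRNA needed for cleavage of the rRNA precursor, came first with 88.9 percentage points, then SNR48 with 90.8 and SNR56 with 104. All 3 are box C/D snoRNAs. The members themselves lay farther from their own mean, from 152 in SNR38 to 257 in SNR191, so the mean describes no single intronic snoRNA.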

How the data were processed

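The 2 iCLIP libraries of tagged Dbp2p were used. Per the submitters' processing notes, CASAVA and TopHat were used with the build sacCer3, and versions are not given there. The authors deposited for each listed nucleotide a fraction of its gene's signal (the file headers call it normalized counts). It sums to 1 in each gene within 3e-07, so level and depth are not given, and no interval was computed. Collapsing of repeated cDNAs, multiple mapping, filters and the offset from the cDNA stop are not given in the sources used here.

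All 81 SNR names matched the RefSeq R64 table, whose coordinates are those of sacCer3 (SNR20 as LSR1), and 1 nucleotide, of no intronic snoRNA, lay outside its RNA and was left out. On the reverse strand, 26 of 26 letters in start codons were those of ATG, so letters are given in the sense of the RNA. Coordinates are 1-based. Shares were computed per RNA and replicate with Python 3.11.15, numpy 2.4.6, pandas 2.3.3 and matplotlib 3.10.9, and checked on simulated data. The members, lists, bands and measures were chosen with earlier results of these data known. Named are the 8 snoRNAs, their hosts, the 3 most alike RNAs and the 3 absent from replicate 2, which were added after their values were seen, as were the printed windows and the shares of A. Alternatives left out the lowest values, merged nucleotides within 5 nt, or changed the comparison set, the window or the replicates.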

Additional observations from a re-analysis of the deposited data

How the results depend on the processing

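No paired analysis was possible because the samples form 1 group. Values are the intronic snoRNAs minus the other SNR names, averaged over the replicates, with -4.25 nucleotides for the number of positions, and the cause of each change was not tested. The number became -7.00 among box C/D RNAs, 1.00 among box H/ACA RNAs, -2.25 without each RNA's lowest values, -1.75 after merging within 5 nt, -7.48 as a mean and 4.16 per 100 nt. The 3′ part (-11.8 percentage points) became 12.3 among H/ACA RNAs and 6.09 over the last 2 of 5 equal parts. The 5′ part (-4.95) became -15.5 among C/D RNAs, 8.16 among H/ACA RNAs, 6.81 without the lowest values and 6.19 over the first 2 of 5 equal parts. The band 15 to 59 nt from the end (11.0) became 30.5 among C/D RNAs, 2.43 among H/ACA RNAs, -4.10 without the lowest values and 20.2 over the last 60 nt. The gap of the signal centre (3.50) became -9.08 among C/D RNAs, 8.15 among H/ACA RNAs and 5.72 without the lowest values. Leaving out 1 replicate gave -5.50 to -3.00 for the number, -17.1 to -6.51 for the 3′ part, -7.55 to -2.35 for the 5′ part, 4.73 to 17.3 for the band, 3.64% to 20.4% for host nucleotides in the flanks and -0.95 to 1.17 percentage points for A or T. The gap and the shared nucleotides need both replicates. In all, 34 of 52 alternatives, the H/ACA band among them, moved values by less than the spread between replicates, or by up to 1.5 times for the gap. For the alternatives that left out 1 of the 2 replicates this was fixed in advance. Such a move is always less than the SD of 2 values, so they do not show robustness. Depth is not given, so an RNA with few listed nucleotides may be little bound or thinly read.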
